A study of Sus scrofa with 150 samples.

Results

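The data are levels of ASNS, ALDH18A1, ATF4 and DDIT3 in the livers of 150 pigs, read on Affymetrix Porcine Genome Arrays with 1 array per pig. The members were taken by gene symbol from the array's annotation. The 4 genes are 4 of 6765 genes with a symbol on the array, and 5 of the 23999 probe sets tested (sets of short probes that each read 1 transcript) carry their symbols. The genes were selected on their measured slopes on fat area and on their correlations with each other in these 150 livers. Values on fat area are therefore given as a description without a test, and so are the correlations among the 4 genes.

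The pigs were of the commercial cross Pix(DLxDE), and livers were collected at slaughter, at a mean end weight of 110 kg. They form 1 group, without any treated or control animals. The labels give each pig's fat area (8.1 to 26.7 cm2) and its drip loss (1.45 to 10.82%), the fluid that meat loses after slaughter. Sex, age, family, feeding state and slaughter day were not in the labels used here, and the tissue is whole liver, so fewer cells of a type and less RNA per cell cannot be told apart. Some pigs are named below by the number in their sample title.

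ATF4 is the transcription factor of the amino acid response. When amino acids run short, or proteins misfold in the endoplasmic reticulum, kinases phosphorylate the translation factor eIF2, most protein synthesis slows, and ATF4 mRNA is translated more. ATF4 protein then switches on genes that make, import and charge amino acids. ASNS, asparagine synthetase, makes asparagine from aspartate with glutamine as nitrogen donor and is a classical ATF4 target. ALDH18A1 (P5CS) turns glutamate into pyrroline-5-carboxylate, the precursor of proline and ornithine. DDIT3 (CHOP) is a transcription factor that ATF4 switches on under prolonged stress and that takes part in stress-induced cell death. Much of the control of ATF4 acts on translation, which an array of mRNA does not read.

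The labelled tissue was borne out by its markers. All 10 measured hepatocyte markers of 11 listed were bright, their mean running from 13.3 to 13.7 on the log2 scale over the 150 livers, and ALB, serum albumin, had a median of 13.93. Arrays had medians from 5.79 to 6.09, and 13 arrays stood apart by a low correlation with the rest. The lowest value on every array was 4.09 on the log2 scale, which is log2 of 1 plus 16 within rounding. Folds below are powers of 2 of differences in these values and understate changes of dim transcripts. None of the members' probe sets was at the lowest value in any liver.

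ASNS varied most among the 4 genes and had a long upper tail. Its probe set ran from 5.74 through a median of 6.38 to 8.92 on the log2 scale (SD 0.513, n = 150), and the highest liver was 5.82-fold above the median. Livers were called outliers of a gene when they lay over 3 scaled median absolute deviations from its median. ASNS had 11 outliers above and 0 below, with a limit at 7.27, the lowest outlier at 7.37 and the next liver at 7.24. The middle of the distribution was narrow, with 1.36-fold between its upper and lower quartile.

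ALDH18A1 ran from 6.07 through 6.92 to 8.57 (SD 0.428, n = 150), with 3 outliers above and 1.43-fold between the quartiles. ATF4 was read by 2 probe sets. The brighter, used below as ATF4, ran from 9.49 through 10.36 to 11.42 (SD 0.347), and the dimmer from 5.14 through 6.19 to 7.24 (SD 0.378). Both had the same single outlier, pig 510. DDIT3 was the flattest, from 5.97 through 6.58 to 7.62 (SD 0.282), with 2 outliers above and 1.27-fold between the quartiles. In SD over the livers ASNS stood at percentile 92.6 of all probe sets, ALDH18A1 at 85.9, ATF4 at 74.5 and DDIT3 at 58.2. None of the 4 genes had an outlier on the low side.

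**Figure D1:**
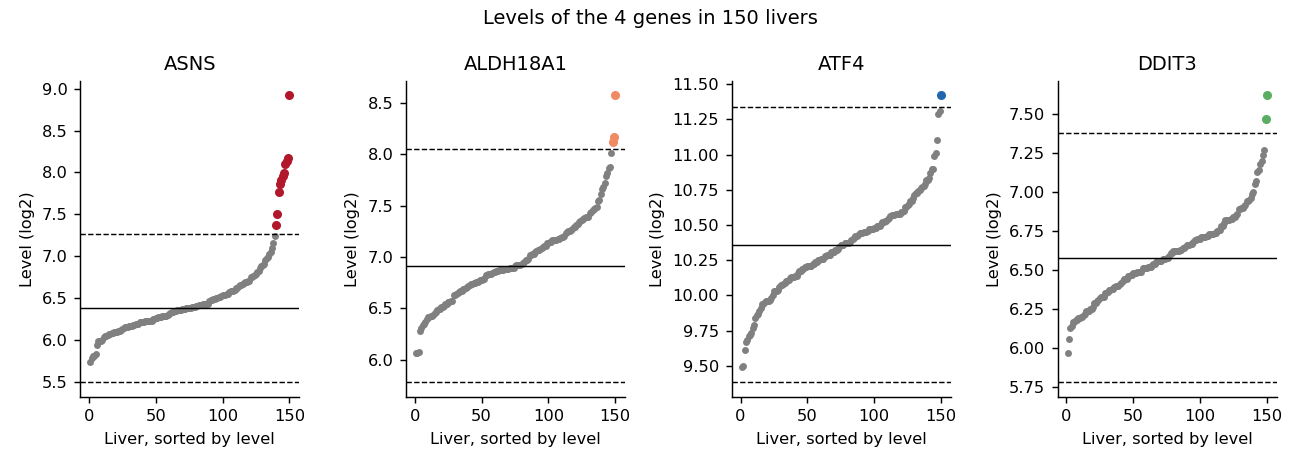
Level of each gene on the log2 scale in 150 livers, each panel sorted from the lowest to the highest liver. Solid lines are medians, dashed lines lie 3 scaled median absolute deviations away, and coloured points are the 11, 3, 1 and 2 outliers of ASNS, ALDH18A1, ATF4 and DDIT3, all on the high side.

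The high livers were mostly not the same for each gene. In all, 13 livers were outliers of at least 1 gene. Pig 510 was highest of all in ASNS (8.92) and in ATF4 (11.42), was number 5 from the top in ALDH18A1 (7.87) and number 8 in DDIT3 (7.13). It was the only liver among the first 8 for all 4 genes. Pig 230 had the highest ALDH18A1 (8.57) together with ASNS at 7.91 and ATF4 at 10.87. The liver at number 2 in ASNS (8.17) was number 3 in ALDH18A1 (8.12), while its ATF4 (10.29) and DDIT3 (6.69) lay near their medians.

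Other livers high in ASNS differed in the remaining genes. The liver at number 4 in ASNS (8.10) had ALDH18A1 at 7.17 but ATF4 at 10.21 and DDIT3 at 6.33, both below their medians. The lowest outlier of ASNS, at 7.37, had a low ATF4 of 9.97. The liver at number 2 in ATF4 (11.31) was number 10 in ASNS (7.50), and that at number 2 in DDIT3 (7.47) had ASNS at 7.86 and ATF4 at 11.01. A high level of 1 gene was also seen without the others. The top liver in DDIT3, pig 240 at 7.62, was low in ASNS (6.07), and the liver at number 2 in ALDH18A1 (8.17) had ASNS at 6.58.

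Of the 11 livers high in ASNS, 2 were also outliers of ALDH18A1, 1 of ATF4 and 1 of DDIT3. Above the median of all livers lay 10 of the 11 in ALDH18A1, 7 in ATF4 and 6 in DDIT3. Since ASNS chose these livers, the counts are a description. 1 of the 11 was among the arrays that stood apart. In 10 of the 11, against 73 of all 150 livers, EIF1AY lay in the lower of 2 separate clusters. EIF1AY is a Y-linked translation factor, with 73 livers up to 4.72 and 77 from 5.64 on the log2 scale. Its part in the high livers was not tested.

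Across all livers the synthesis enzymes went together moderately, and DDIT3 went with neither. Pearson's r between ASNS and ALDH18A1 was 0.421 (Spearman's rho 0.337, n = 150). ALDH18A1 stood at place 36 among the other probe sets ranked by r with ASNS, and ASNS at place 6 among those ranked by r with ALDH18A1. ASNS and ATF4 had r = 0.338 and rho = 0.290, with ATF4 at place 273 for ASNS. With the dimmer ATF4 probe set r was 0.233. ALDH18A1 and ATF4 had r = 0.141 (95% interval -0.0201 to 0.294), and ATF4 was at place 3881 for ALDH18A1.

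For DDIT3, r was 0.223 with ATF4 (rho 0.192), 0.125 with ALDH18A1 (rho 0.127) and 0.0904 with ASNS (95% interval -0.0709 to 0.247, rho 0.000493). The rank correlation of ASNS and DDIT3 was thus near 0. The 2 probe sets of ATF4 correlated at 0.720. Arrays, hybridisation and RNA quality are shared by all probe sets of a liver and enter these values.

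**Figure D2:**
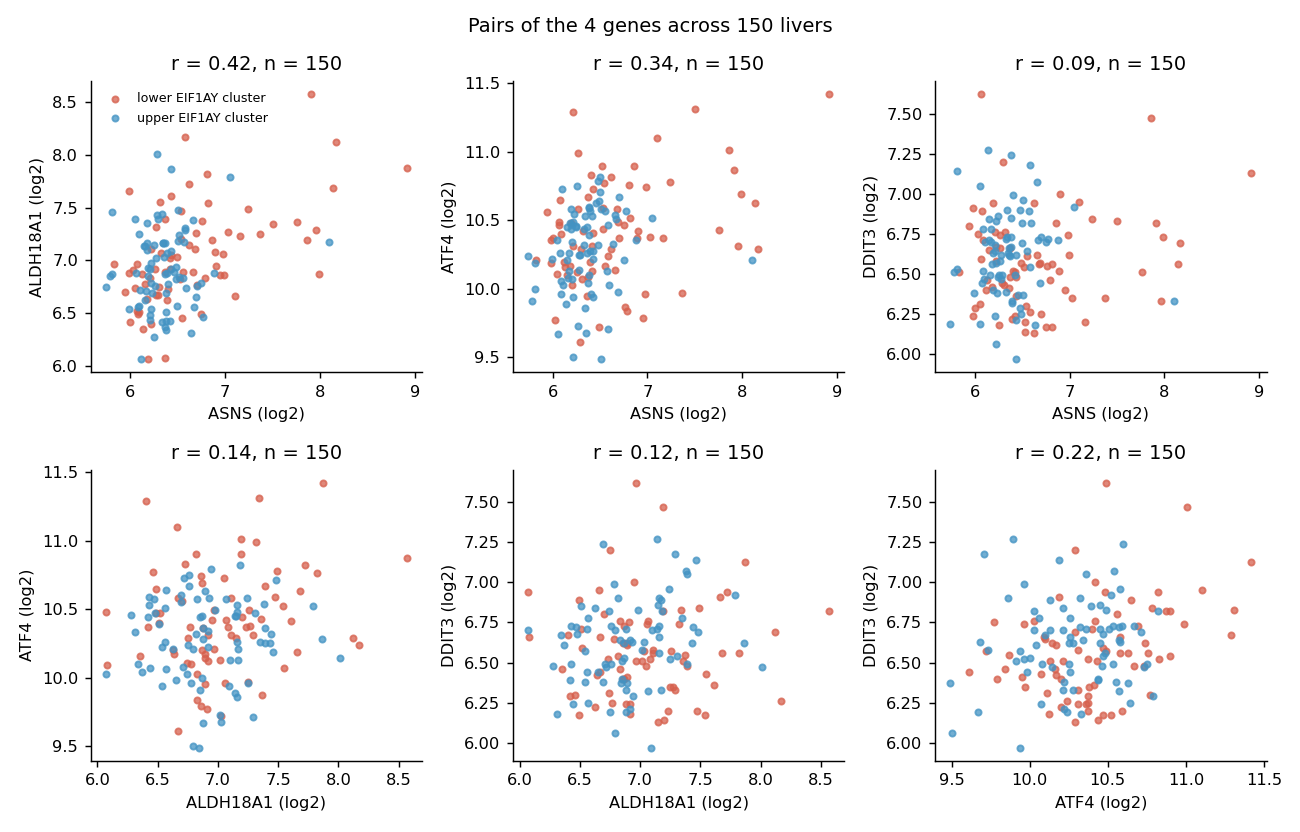
Each pair of the 4 genes across 150 livers, both axes on the log2 scale, with the 73 livers of the lower EIF1AY cluster in red and the 77 of the upper in blue. The point at the upper right of the panel of ASNS and ATF4 is pig 510, and the panel of ASNS and DDIT3 shows no trend (r = 0.09).

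Correlations among the genes were smaller without the high livers. Those livers were picked by the members' own levels, 11 of them by ASNS. Leaving them out narrows the range, here and below, and by itself tends to lower r and the number of calls. With levels replaced by normal scores of their ranks in all livers, r was 0.350 for ASNS and ALDH18A1 and 0.308 for ASNS and ATF4. Leaving out the 13 outlier livers gave r of 0.226 for ASNS and ALDH18A1, 0.231 for ASNS and ATF4 and 0.118 for ATF4 and DDIT3. Leaving out any 1 liver moved r of ASNS and ATF4 between 0.269 and 0.358, the low end without pig 510. For ASNS and ALDH18A1 the range was 0.380 to 0.438, the low end without pig 230. Without the 13 arrays that stood apart these r were 0.434 for ASNS and ALDH18A1 and 0.322 for ASNS and ATF4. In 10 sets of pigs with neighbouring title numbers, each pair had a positive r in 9, and the values ran from -0.312 to 0.716 and from -0.0582 to 0.743. In the lower EIF1AY cluster r of ASNS and ALDH18A1 was 0.538, and in the upper 0.107. For ASNS and ATF4 the values were 0.360 and 0.175. The difference between the clusters was not tested.

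Which other genes went with ASNS was asked with a fit of every probe set on its level (limma, n = 150). Calls were made at an adjusted p under 0.05 (Benjamini-Hochberg over all probe sets), and slopes are in log2 units per SD of the member's level. With ASNS, 6.57% of 23998 probe sets were called higher and 3.77% lower. The gene lists below were chosen with earlier results of these data known, so their counts beside such shares are a description. The genes most like ASNS by r were SARS (SARS1, r = 0.585), the seryl-tRNA synthetase, PRDX4 (0.515), a peroxiredoxin of the endoplasmic reticulum, GARS (GARS1, 0.494), the glycyl-tRNA synthetase, PYCR1 (0.492), which makes proline, and ISYNA1 (0.486), which makes inositol phosphate. With the 13 outlier livers left out these r were 0.397, 0.314, 0.264, 0.272 and 0.439. The most negative were CHDH, choline dehydrogenase (-0.433), the histone gene HIST1H2BD (-0.405) and NMB, neuromedin B (-0.387).

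Enzymes that charge tRNA with amino acids were often higher where ASNS or ATF4 was higher. Of 15 measured cytosolic tRNA synthetases (20 listed), 8 were called higher with ASNS and 0 lower, and 8 higher with ATF4 and 0 lower. The median r of the list was 0.296 with ASNS, against -0.000361 over all probe sets, and 0.267 with ATF4, against -0.0194. With ATF4, 6.85% of 23997 probe sets were called higher and 5.95% lower. SARS1, which ran from 8.84 through 9.38 to 10.19, had a slope of 0.13 on ASNS (SE 0.0156, adjusted p = 2.52e-10) and of 0.12 on ATF4 (SE 0.0163, adjusted p = 2.9e-09). MARS1, for methionine, had slopes of 0.12 (SE 0.0193, adjusted p = 1.08e-05) and 0.10 (SE 0.0198, adjusted p = 2.58e-05). Both enzymes therefore rose with each of the 2 genes.

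GARS1 rose by 0.12 with ASNS (SE 0.0177, adjusted p = 6.07e-07) and by 0.07 with ATF4 (SE 0.0195, adjusted p = 0.0108). AARS1, for alanine, rose by 0.11 with ASNS (adjusted p = 0.000242) and 0.14 with ATF4 (adjusted p = 5.75e-08). FARSA, HARS1 and VARS1 were called with both genes, WARS1 with ASNS and FARSB with ATF4. Among those called with neither were the synthetases of arginine (RARS1), lysine (KARS1), asparagine (NARS1), leucine (LARS1), and glutamate and proline (EPRS1). NARS1, which uses the asparagine that ASNS makes, had r = 0.0557 with ASNS. Without the 13 outlier livers 3 synthetases stayed called with ASNS (AARS1, MARS1 and SARS1, against 2.40% of all probe sets called higher) and 7 with ATF4 (against 5.68%).

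With ALDH18A1, 4 of 15 synthetases were called higher (FARSA, GARS1, MARS1 and WARS1) and 1 lower (KARS1), against 4.18% and 2.37% of 23998 probe sets. With DDIT3 the count was 1 higher (AARS1) and 0 lower, against 3.56% and 1.04%. Median r was 0.184 with ALDH18A1 and 0.0268 with DDIT3. Without the 13 arrays that stood apart, 1 synthetase (WARS1) was called higher with ALDH18A1 and 0 with DDIT3, while the counts were 9 with ASNS and 8 with ATF4. Of all probe sets 2.31%, 2.17%, 4.36% and 6.49% were then called higher, in that order. Over all lists the count with ALDH18A1 was 15 of 88 genes, and 8 without pig 510. After quantile normalization the synthetases called were 8 higher and 5 lower with ALDH18A1 and 2 higher and 5 lower with DDIT3. Over all probe sets that scaling called 16.1% higher and 14.2% lower with ALDH18A1, and 18% and 15.3% with DDIT3. It lowered the share of higher among all calls from 63.8% to 53.1% with ALDH18A1, from 77.4% to 54% with DDIT3 and from 63.6% to 52.8% with ASNS. The synthetases called with ASNS and with ATF4 stayed at 8 higher and 0 lower. Of all probe sets that scaling called 15.6% higher and 13.9% lower with ASNS, and 8.28% and 7.68% with ATF4.

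**Figure D3:**
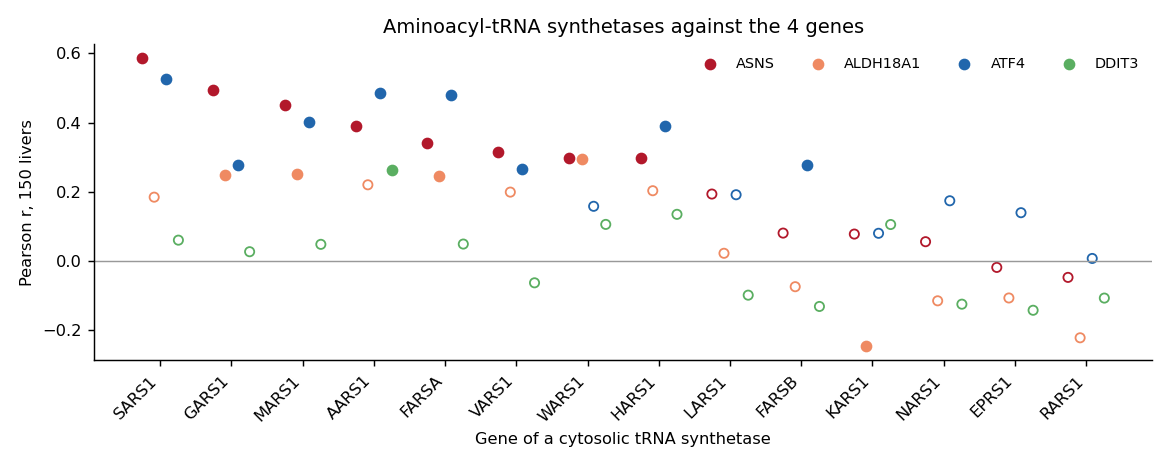
Pearson's r of cytosolic tRNA synthetase genes with each of the 4 genes over 150 livers, ordered by r with ASNS. Filled points passed limma's test (adjusted p under 0.05) and open points did not, and the filled points of ASNS and ATF4 are 8 each.

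The synthesis enzymes outside the 4 genes were divided. Of 13 measured (17 listed), 3 were called higher with ASNS and 2 lower, against 6.57% and 3.77% of all probe sets, and the median r was 0.0468. ATF4 had 1 higher (MTHFD1L) and 0 lower, against 6.85% and 5.95% of all probe sets, with a median r of 0.0446. DDIT3 had 0 higher and 2 lower (PSAT1 and GLUL, limma adjusted p = 0.0376 and 0.0351), against 3.56% and 1.04%. Of these 2, GLUL stayed called with DDIT3 without the outlier livers, and neither did without the arrays that stood apart. PYCR1, the last enzyme of proline synthesis, which takes the product of ALDH18A1 further, ran from 5.23 through 6.17 to 7.64. It rose by 0.24 with ASNS (SE 0.035, adjusted p = 3.6e-07) and by 0.20 with ALDH18A1 (SE 0.0368, adjusted p = 0.000724). Its slope on ATF4 was 0.07 (SE 0.0397, adjusted p = 0.268). PSPH, the last enzyme of serine synthesis, rose by 0.22 with ASNS (SE 0.0425, adjusted p = 0.000203), and its lowest level was that of the floor, 4.09.

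MTHFD1L, of mitochondrial folate metabolism, rose with ASNS (0.09, adjusted p = 0.0024), ALDH18A1 (0.07, adjusted p = 0.0266) and ATF4 (0.07, adjusted p = 0.0231). CTH, which makes cysteine from cystathionine, fell by 0.15 with ASNS (SE 0.039, adjusted p = 0.00831) and by 0.13 with ALDH18A1 (adjusted p = 0.0328). SHMT1, the cytosolic serine hydroxymethyltransferase, had slopes of -0.09 on ASNS (limma adjusted p = 0.0236) and -0.09 on ALDH18A1 (adjusted p = 0.0322). PHGDH and PSAT1, the first enzymes of serine synthesis, had r of 0.0468 and 0.0463 with ASNS and were not called with it. PSPH, MTHFD1L and PYCR1 were still called with ASNS when the 13 outlier livers were left out, and CTH and SHMT1 were not. With ALDH18A1, PYCR1 and SHMT1 were then still called, and MTHFD1L and CTH were not. Without the arrays that stood apart PYCR1 alone was called with ALDH18A1.

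Amino acid import was read by 5 of the 13 transporters listed, of which 2 were called higher with ASNS and 0 lower. The counts were 2 higher with ALDH18A1, 2 with ATF4 and 1 with DDIT3, with 0 lower. Of all probe sets 6.57%, 4.18%, 6.85% and 3.56% were called higher with ASNS, ALDH18A1, ATF4 and DDIT3. SLC7A1, which imports arginine and lysine, ran from 5.35 through 6.30 to 9.13. It rose by 0.17 with ASNS (SE 0.0333, adjusted p = 0.000232), 0.22 with ATF4 (SE 0.0315, adjusted p = 2.94e-08) and 0.12 with ALDH18A1 (SE 0.0347, adjusted p = 0.0254). SLC1A5, a glutamine transporter, rose by 0.06 with ASNS (adjusted p = 0.00849), and SLC3A2, the heavy chain shared by several transporters, by 0.11 with ATF4 (adjusted p = 0.000303). SLC3A2 had a slope of 0.07 on ASNS (adjusted p = 0.0713), and SLC1A4 0.04 (adjusted p = 0.11). SLC1A5 was also called higher with ALDH18A1 (0.05, limma adjusted p = 0.0433), and SLC38A1 with DDIT3 (0.22, limma adjusted p = 0.0307). Without the outlier livers SLC1A5 was not called with ASNS or ALDH18A1, while SLC38A1 was still called with DDIT3. Without the arrays that stood apart SLC1A5 was not called with ALDH18A1. SLC7A1 was still called with ASNS, ATF4 and ALDH18A1, and SLC3A2 with ATF4.

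Partners around asparagine and proline were called in both directions with ASNS and ATF4. ODC1, which turns ornithine into putrescine, rose by 0.13 with ASNS (SE 0.0292, adjusted p = 0.000982) and by 0.17 with ATF4 (adjusted p = 4.96e-07). OAT, which links ornithine with the precursor of proline, fell by 0.24 with ASNS (SE 0.0534, adjusted p = 0.00139) and by 0.19 with ATF4 (adjusted p = 0.0111). Of the 7 measured genes of this list 1 was called higher and 1 lower with ASNS, against 6.57% and 3.77% of all probe sets. With ATF4 1 was higher and 2 were lower (OAT and ASS1), against 6.85% and 5.95%. With ALDH18A1 and with DDIT3 0 were called in either direction. ASRGL1, an asparaginase, had r = 0.0557 with ASNS. ASL and ASS1, which make arginine from citrulline and aspartate, had slopes of -0.07 (adjusted p = 0.137) and -0.04 (adjusted p = 0.25) on ASNS. On ATF4 the slope of ASS1 was -0.06 (SE 0.0209, limma adjusted p = 0.0452). When the outlier livers were left out, neither ODC1 nor OAT was called with ASNS. With ATF4 neither OAT nor ASS1 was then called, while ODC1 was.

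Enzymes of amino acid breakdown and the urea cycle were more often lower than higher with ASNS and ALDH18A1. With ASNS 3 of 11 measured genes (19 listed) were lower and 1 higher, with a median r of -0.196. Of all probe sets 3.77% were called lower and 6.57% higher with ASNS. DBT, of branched-chain amino acid breakdown, fell by 0.15 (SE 0.0354, adjusted p = 0.00249), GNMT, a glycine methyltransferase, by 0.13 (adjusted p = 0.0139), and CPS1, the first enzyme of the urea cycle, by 0.08 (adjusted p = 0.0182). BCKDHA, of the same complex as DBT, rose by 0.08 (adjusted p = 0.0118). ALDH18A1 had 3 lower and 0 higher, against 2.37% and 4.18% of all probe sets, with OTC, the urea cycle enzyme, at -0.15 (SE 0.0376, adjusted p = 0.0114). ATF4 had 2 lower (GPT and DBT) and 1 higher (BCKDHA), against 5.95% and 6.85% of all probe sets, with a median r of -0.167. With DDIT3 GNMT alone was called, higher (0.13, limma adjusted p = 0.0261), against 3.56% of all probe sets. Once the outlier livers were left out, limma called 0 of the 11 with ASNS and 1, DBT, lower with ALDH18A1. With ATF4 it then called BCKDHA higher and 0 lower. DBT and CPS1 were not called with ASNS without the arrays that stood apart. In that run 3 were lower with ASNS (SDS, BCKDHB and GNMT) and 1 higher (BCKDHA), against 1.05% and 4.36% of all probe sets.

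Upstream of ATF4, subunits of eIF2B, the factor that recharges eIF2 and that phosphorylated eIF2 blocks, followed ASNS and ATF4. Of 10 measured genes of this list 3 were called higher with ASNS (EIF2B1, EIF2B2 and EIF2B3) and 4 with ATF4 (EIF2S1, EIF2B1, EIF2B3 and EIF2B4), with 0 lower. Of all probe sets 6.57% were called higher with ASNS and 6.85% with ATF4. DDIT3 had 1 higher, EIF2B1 (0.05, limma adjusted p = 0.0476), against 3.56%, and ALDH18A1 had 0. EIF2S1 is the eIF2 subunit that the kinases phosphorylate. EIF2B3 rose by 0.11 with ASNS (SE 0.0186, adjusted p = 4.38e-05) and by 0.13 with ATF4 (SE 0.0176, adjusted p = 3.15e-09). EIF2B2 rose by 0.09 with ASNS (adjusted p = 0.0122), and EIF2B4 had a slope of 0.05 (adjusted p = 0.0665). EIF2AK2, the only eIF2 kinase measured, had a slope of -0.14 on ASNS (SE 0.0632, adjusted p = 0.128). Without the outlier livers the 3 genes stayed called with ASNS, and EIF2B1 was not called with ATF4. EIF2B2 was not called with ASNS without the arrays that stood apart. After quantile normalization 4 were higher and 3 lower with ASNS (EIF2AK2, IMPACT and PPP1R15B), against 15.6% and 13.9% of all probe sets.

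Other targets of the stress response had few calls with ASNS and more with ATF4. With ASNS 0 of 12 measured genes (22 listed) were higher and 2 were lower, against 6.57% and 3.77% of all probe sets. These 2 were ERO1A (-0.09, adjusted p = 0.0296), an oxidase of the endoplasmic reticulum, and VEGFA (-0.12, adjusted p = 0.0397), a growth factor. ALDH18A1 had 0 called, and DDIT3 had 1 higher, against 3.56%. With ATF4 4 were higher and 1, WIPI1, of autophagy, was lower, against 6.85% and 5.95%. The 4 were ATF3, CEBPB, CEBPG and CEBPD, all transcription factors, while ATF5, a transcription factor of the same list, had a slope of -0.03 on ATF4 (SE 0.0208, adjusted p = 0.407). ATF3 ran from 5.33 through 6.27 to 10.95, and rose by 0.30 with ATF4 (SE 0.0574, adjusted p = 3.23e-05) and by 0.31 with DDIT3 (SE 0.0569, adjusted p = 0.000212). Its slope on ASNS was 0.10 (SE 0.0617, adjusted p = 0.288), and that of CEBPD 0.06 (SE 0.0328, adjusted p = 0.213). ERO1A and VEGFA were not called with ASNS once the 13 outlier livers, or the 13 arrays that stood apart, were left out. WIPI1 was not called with ATF4 without the outlier livers, while the 4 higher genes still were.

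Part of the chaperones and folding factors of the endoplasmic reticulum were higher with ATF4 or ASNS. Of 15 measured (20 listed), 8 were higher with ATF4, 6 with ASNS, 1 with ALDH18A1 and 1 with DDIT3, and 0 were lower with any. Of all probe sets 6.85%, 6.57%, 4.18% and 3.56% were called higher, in that order. After quantile normalization HSP90B1 and CANX were called lower with ALDH18A1 and with DDIT3, while 4 and 3 genes of this list were higher. That scaling called 16.1% of all probe sets higher and 14.2% lower with ALDH18A1, and 18% and 15.3% with DDIT3. MANF, a secreted stress protein, ran from 8.81 through 10.11 to 11.70. It rose by 0.38 with ATF4 (SE 0.0383, adjusted p = 3.18e-15) and by 0.22 with ASNS (SE 0.046, adjusted p = 0.00068). XBP1, a transcription factor of the unfolded protein response, was called with each of the 4 genes, by 0.17 with ATF4, 0.09 with ASNS, 0.08 with ALDH18A1 and 0.09 with DDIT3 (adjusted p = 1.44e-10, 0.00785, 0.0373 and 0.0169). HYOU1 and CRELD2, both folding factors, rose with ASNS by 0.21 and 0.22 (adjusted p = 0.00369 and 0.00159). Leaving out the outlier livers, limma called 0 chaperones with ASNS, ALDH18A1 or DDIT3 and 6, XBP1 among them, with ATF4. XBP1 was not called with ALDH18A1 without the arrays that stood apart.

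**Figure D4:**
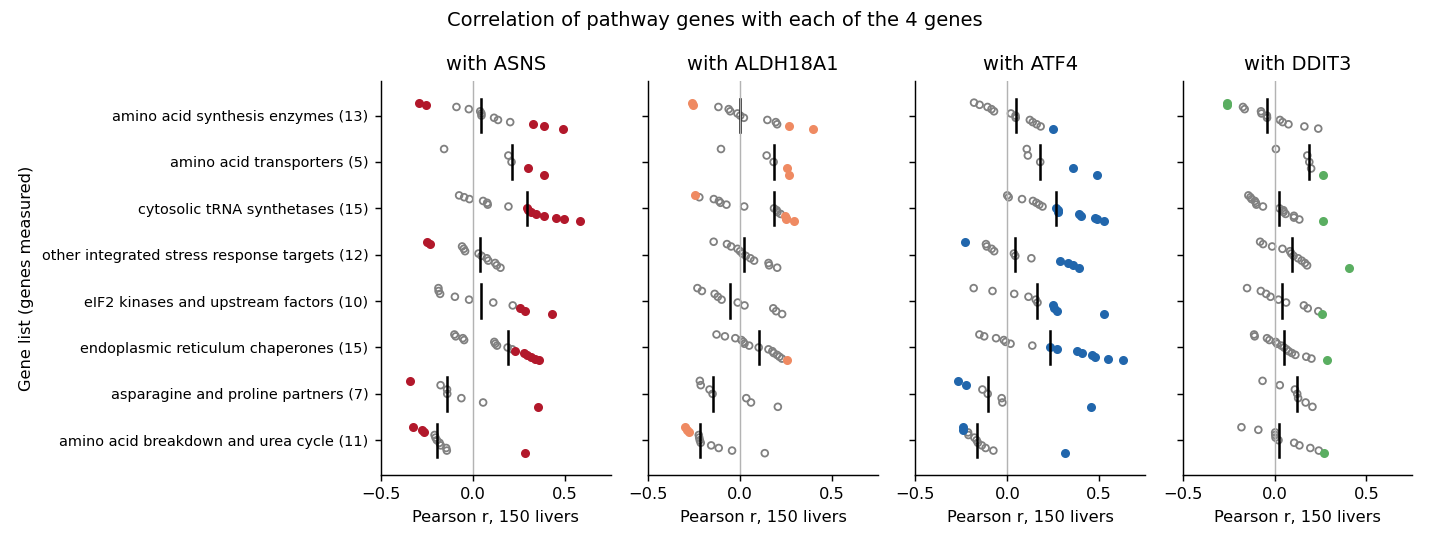
Pearson's r over 150 livers of the measured genes of 8 lists with ASNS, ALDH18A1, ATF4 and DDIT3. Filled points passed limma's test, open points did not, and vertical bars are list medians, which for tRNA synthetases are 0.296, 0.184, 0.267 and 0.0268.

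The difference between following ASNS and following ATF4 was tested with both levels in a single limma fit and the contrast of their slopes, a comparison added after the data were seen. Over 23996 probe sets the ASNS slope was above the ATF4 slope in 0.513% and below it in 0.629%. PYCR1 was the single pathway gene called with the steeper ASNS slope (difference 0.26, SE 0.061, adjusted p = 0.00792). CEBPG (difference -0.17, SE 0.0468, adjusted p = 0.0489), DNAJB9, a chaperone cofactor (-0.28, SE 0.0652, adjusted p = 0.00792), and MANF (-0.25, SE 0.0654, adjusted p = 0.0264) were steeper on ATF4. For the 15 synthetases 0 differences were called in either direction, with a median of -0.024.

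The genes most like the other members were of different kinds. For ATF4 they were PPRC1 (r = 0.769), a coactivator of mitochondrial genes, JMJD6 (0.725), a hydroxylase, PTRH2 (0.673), a peptidyl-tRNA hydrolase, WDR74 (0.666), of ribosome assembly, and EIF4A1 (0.656), a translation initiation helicase. Their r lay between 0.641 and 0.759 when the 13 outlier livers were left out. The most negative were ZNF395 (-0.492), the cold-induced CIRBP (-0.492) and DBP (-0.480), a transcription factor of the circadian clock. The r of DBP with ASNS was -0.186.

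For ALDH18A1 they were MSN (r = 0.457), which ties membrane to actin, PLOD3 (0.432), a collagen lysyl hydroxylase, ASNS (0.421), RPN1 (0.410), of the glycosylation complex, and TMEM248 (0.398). The most negative were PAPSS2 (-0.390), which makes the sulphate donor, ALDH7A1 (-0.385), of lysine breakdown, and ACAA2 (-0.377), of fatty acid oxidation. For DDIT3 they were SNRNP35 (0.478), of the minor spliceosome, the immediate early genes IER2 (0.466) and IER5 (0.460), TBCC (0.460), a tubulin folding cofactor, and RASSF1 (0.446). The most negative were CFAP73 (-0.378), HSD17B4 (-0.375), of peroxisomal fatty acid oxidation, and PBLD (-0.371). ASNS was the only member among the 5 genes most like another.

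Markers of other cells moved with some members. The mean of 6 measured stellate and fibroblast markers of 7 listed, 7.31 to 8.54 over the livers, had r = 0.311 with ALDH18A1 and 0.260 with ASNS. The mean of 3 neutrophil markers of 5 listed, 4.80 to 6.69, had r = 0.402 with ATF4 and 0.299 with ASNS. The mean of 6 macrophage markers of 9 listed, 8.57 to 10.2, had r = 0.284 with DDIT3. The mean of 5 bile duct markers of 6 listed, 4.67 to 5.92, had r = 0.248 with ASNS. Without the 13 outlier livers r with ASNS was 0.151 for the neutrophil, 0.295 for the stellate and fibroblast and 0.336 for the bile duct markers. The others were then 0.311 for neutrophil markers with ATF4, 0.258 for stellate and fibroblast markers with ALDH18A1 and 0.233 for macrophage markers with DDIT3. No marker of these lists had its median at the lowest value. Exocrine pancreas, a tissue rich in ASNS, was read by 6 of 8 markers whose mean had r = -0.0989 with ASNS. The part of these cells in the results was not tested. Among array measures r with the members lay between -0.174 and 0.191 for the array median and the differences between 3 prime and 5 prime control probe sets.

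ASNS and ALDH18A1 levels were lower in pigs with more fat, which is how they came to be chosen. In 5 groups of 30 pigs by fat area (ties split by sample order), the median of ASNS was 6.53, 6.41, 6.46, 6.22 and 6.35 from the leanest to the fattest. Its highest values were 8.92, 7.76, 7.99, 8.10 and 6.75, so that 0 of the 11 high livers fell in the fattest group, while the lowest values, from 5.74 to 5.83, hardly differed. For ALDH18A1 the medians were 7.17, 7.16, 6.86, 6.92 and 6.78. For ATF4 they were 10.44, 10.35, 10.46, 10.30 and 10.22, and for DDIT3 6.57, 6.56, 6.66, 6.60 and 6.55. The ranges of the 5 groups overlapped for every gene.

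Per SD of fat area the slope of ASNS was -0.17 (SE 0.0393), that of ALDH18A1 -0.15 (SE 0.0327), of ATF4 -0.09 (SE 0.0275), of its dimmer probe set -0.10 (SE 0.0298) and of DDIT3 -0.01 (SE 0.0232), on the log2 scale. Of all probe sets 0.0458% were called lower with fat area (limma, adjusted p under 0.05). Nothing is read from that share, since this contrast chose the members. Without the 13 outlier livers the slope of ASNS was -0.07 (SE 0.0249) and that of ALDH18A1 -0.10 (SE 0.0315). In the lower EIF1AY cluster, whose pigs averaged 13.9 cm2 of fat area (SD 2.84, n = 73), the slope of ASNS was -0.22 (SE 0.0675). In the upper, at 16.6 cm2 (SD 3.06, n = 77), it was -0.03 (SE 0.036). Of the 15 synthetases 13 had a negative slope on fat area and 0 passed, with a median of -0.0374 against 0.000248 over all probe sets, and 14 of the 15 chaperones had one, with 0 passed and a median of -0.07. Of 11 genes of amino acid breakdown and the urea cycle 1 had a negative slope, with a list median of 0.0848. GPT, an alanine aminotransferase (0.14, SE 0.0307), and BCKDHB, of branched-chain amino acid breakdown (0.10, SE 0.0216), passed higher (limma adjusted p = 0.0115 for each), against 0.0792% of all probe sets. Both were chosen after their values were seen. Of 7 asparagine and proline partners 1 had a negative slope and 0 passed.

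**Figure D5:**
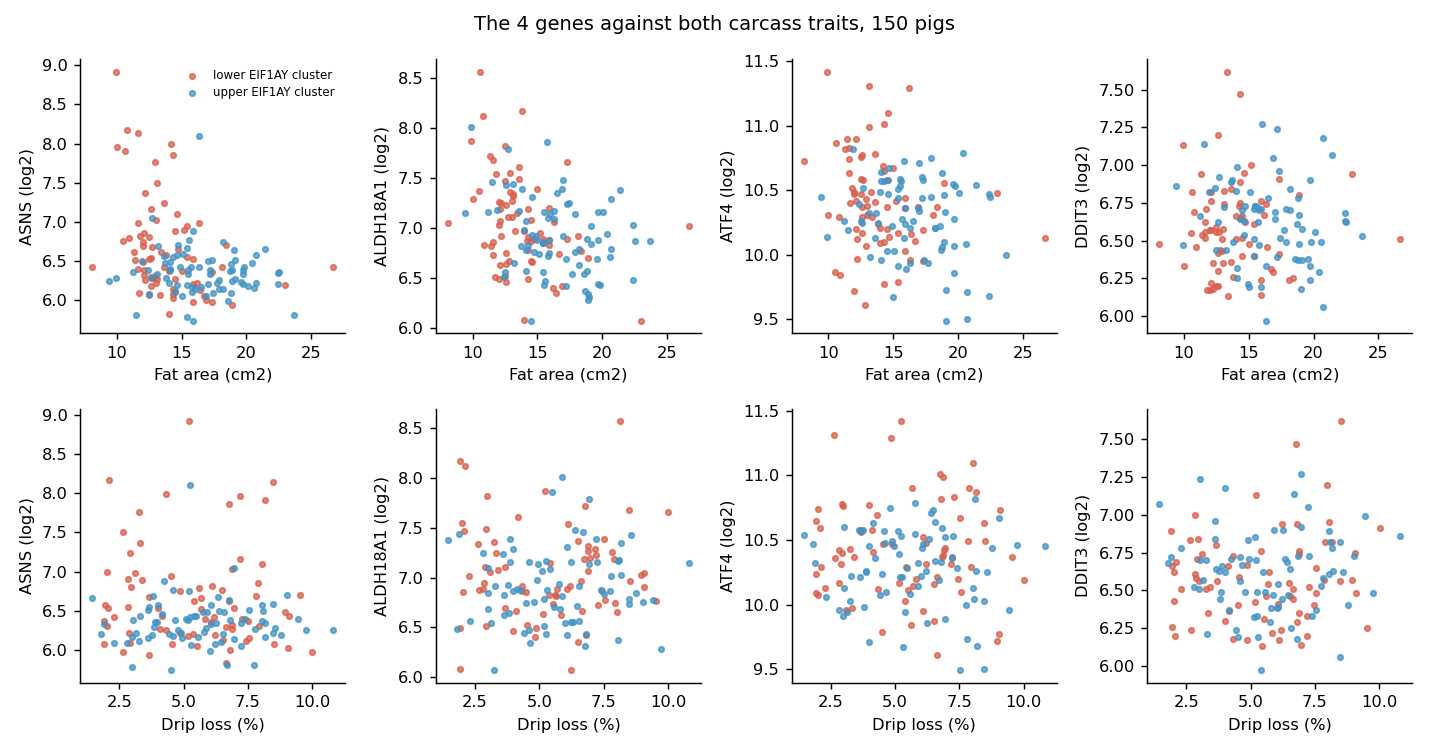
Levels of the 4 genes on the log2 scale against fat area (upper row, cm2) and drip loss (lower row, percent) in 150 pigs, with the lower EIF1AY cluster in red and the upper in blue. High ASNS values lie at small to middle fat areas and at all drip losses.

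Drip loss was not used to choose the genes, and the limma test called none of the 4 with it. In 5 groups of 30 pigs by drip loss, from low to high, the ASNS medians were 6.4, 6.37, 6.41, 6.36 and 6.37, and those of ALDH18A1 7.04, 6.87, 6.86, 7.11 and 6.995. ATF4 had 10.3, 10.47, 10.29, 10.37 and 10.28, and DDIT3 6.64, 6.61, 6.44, 6.54 and 6.64. The ASNS outliers were spread over all 5 groups, each with a highest liver of at least 7.96. The slope per SD of drip loss was -0.03 for ASNS (SE 0.0416, 95% interval -0.11 to 0.055, limma adjusted p = 0.816) and 0.0063 for ALDH18A1 (SE 0.0349, interval -0.063 to 0.075, adjusted p = 0.96). It was -0.02 for ATF4 (SE 0.0283, interval -0.074 to 0.038, adjusted p = 0.825), 0.0065 for its dimmer probe set (SE 0.0308, adjusted p = 0.952) and 0.02 for DDIT3 (SE 0.0232, interval -0.028 to 0.063, adjusted p = 0.781).

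Over all 23999 probe sets limma called 0 with drip loss (0%), with 2638 at an unadjusted p under 0.05. The pathway lists had 0 called as well, and the median slope of the 15 synthetases was -0.00447 against 0.0043 over all probe sets.

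ASNS also followed EIF1AY, a comparison added after the data were seen. In the lower cluster ASNS ran from 5.83 through 6.52 to 8.92, and in the upper from 5.74 through 6.34 to 8.10. The ranges overlapped, and the upper tail was longer in the lower cluster, with an SD of 0.626 (n = 73) against 0.315 (n = 77). Per SD of EIF1AY the slope of ASNS was -0.16 (SE 0.0397, limma adjusted p = 0.0259), where 0.388% of 23998 probe sets were called lower. With fat area as a covariate it was -0.11 (SE 0.0418, adjusted p = 0.162), and without the 13 outlier livers -0.07 (SE 0.0249, adjusted p = 0.239). ALDH18A1 had -0.08 (SE 0.0344, adjusted p = 0.259), ATF4 -0.07 (SE 0.0278, adjusted p = 0.205) and DDIT3 0.0089 (SE 0.0232, adjusted p = 0.885), and these did not pass. Since fat area and EIF1AY went together, their relations with ASNS cannot be told apart fully.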

How the data were processed

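Liver RNA was labelled with biotin and hybridised to 1 array per pig, per the labels' protocols. The values as deposited by the authors are log2 signals rounded to 2 decimals, a scale read from the values themselves. How probes were summarised and arrays scaled was not given in the sources used here. Per the submitters' processing notes GCOS 1.1.1, Affymetrix's scanner software, was used. Of 24123 probe sets 124 controls were left out, and 2.75% of the values of the other 23999 lay at the floor of 4.09. Symbols came from the array annotation, checked by Entrez ID against Sscrofa11.1 (9961 of 10069 matched, 0 changed), and 13732 probe sets had none. No genome build is named in the files, so no coordinates are given. The number of arrays limits the precision. The highest correlation between 2 arrays was 0.989, and all 150 were kept.

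Slopes came from limma 3.58.1 in R 4.3.3, using lmFit and then eBayes with its trend option, per SD of the regressor, without covariates, two-sided, and adjusted by Benjamini-Hochberg over all probe sets outside the member regressed on. The fit was tested on simulated data. A gene counts by its probe set of highest mean. Pathway lists held 135 genes, of which 88 were measured. An array stood apart when its median correlation with the others lay over 3 scaled median absolute deviations below the median. The members and lists were chosen with earlier results of these data known. Genes named are the members, the 5 of highest and 3 of lowest r with each, and 4 per list of largest absolute r with ASNS. Others were chosen after their values were seen, ATF3, CEBPB, CEBPG, NARS1 and DNAJB9 among them. Alternatives covered scaling, filters, covariates and livers left out, with added ones for the EIF1AY clusters, pig 510 and the EIF1AY slopes. 1 gene of the synthetase list enters the counts but is not reported here by name. P-values weigh a slope against the spread between pigs, which were taken as independent. Family and slaughter day were not in the labels used here, so pigs that shared them could not be allowed for.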

Additional observations from a re-analysis of the deposited data

How the results depend on the processing

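Over 25 results, 282 recomputed values stayed on their side of the threshold (tested slopes), within 1 SE (fat area slopes), within the 95% interval (correlations) or within 1.5 times (counts), and 27 did not. Among the 282, slopes near 0 turned sign. The drip loss slope of ALDH18A1 was -0.00572 with both traits in 1 model, and the fat area slope of DDIT3 was 0.00543 with 5 principal components, 0.00293 in the lower EIF1AY cluster and 0.00019 without the outlier livers. In the upper EIF1AY cluster r of ALDH18A1 and ATF4 was 0.00591. With drip loss 0 probe sets were called under each of 14 alternatives, and adjusted p of the members ran from 0.683 to 0.999. Without the 13 outlier livers the fat area slope was -0.0695 for ASNS and -0.104 for ALDH18A1, r of ASNS and ALDH18A1 was 0.226, pathway genes called numbered 10 with ASNS (32 in all livers) and 7 with ALDH18A1 (15), and synthetases higher with ASNS numbered 3. With normal scores of the ASNS level as regressor, 31 pathway genes were called with ASNS and 8 synthetases were higher. With EIF1AY as a covariate the fat area slope of ASNS was -0.131, and 8 pathway genes were called with ALDH18A1. In the lower EIF1AY cluster the ASNS slope was -0.224. In the upper cluster fat area slopes were -0.0256 for ASNS, -0.113 for ALDH18A1, -0.0593 for ATF4 and -0.0428 for DDIT3, and r with ASNS was 0.107 for ALDH18A1 and 0.175 for ATF4. With 5 principal components the ATF4 slope on fat area was -0.0465, and 7 pathway genes were called with ALDH18A1 and 4 with DDIT3 (8). Without the 13 arrays that stood apart the counts were 6 and 4, and without pig 510 ALDH18A1 had 8. Quantile normalization called 47 pathway genes with ALDH18A1 (27 higher, 20 lower) and 35 with DDIT3 (21 higher, 14 lower), where it called 16.1% and 14.2%, and 18% and 15.3%, of all probe sets. With probe sets above a mean of 6, 23 pathway genes were called with ALDH18A1, and with an SD above 0.25, 5 synthetases were higher with ATF4. The EIF1AY slope of ASNS did not pass with fat area as a covariate (-0.106) or without the outlier livers (-0.0659). The cause of these shifts was not tested, except that filters leave fewer probe sets. With the mean of both ATF4 probe sets no ATF4 result crossed its threshold or moved beyond these bounds. No paired analysis was possible because all pigs form 1 group. The clusters of EIF1AY and the run without pig 510 were chosen after seeing the data. Levels near the floor limit what dim probe sets can show.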
